A study of Homo sapiens with 6 samples.

Results

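The widest merged HA regions of U2OS cells that express an HA-tagged MMP-2 are described here. They were the regions of the merged HA list whose end minus start exceeded 2000 bp on chromosomes 1 to 22 and X. Of the 7216 merged regions, 526 met this rule, which is 7.29% of the 7211 regions on these chromosomes, and the other 6685 were narrower. The regions were chosen by their measured HA width, so their width and their HA enrichment are given as descriptions, without a test.

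U2OS is an osteosarcoma cell line. HA nChIP-Seq was carried out in 3 replicates in ProMMP2-3xHA cells, a single stable line made from U2OS in which a transgene for proMMP-2, tagged with 3xHA at its end, is always on, so that effects of the tag and of the line cannot be told apart. H3K4me3 nChIP-Seq was carried out with 1 library in ProMMP2-3xHA cells and 1 in WT U2OS cells, which have no tag. All cells were kept for 2 days past confluence, and their chromatin was cut with micrococcal nuclease and immunoprecipitated without a crosslink. HA nChIP-Seq of WT cells was not used here, so no list of untagged HA regions stands beside these. The paper called enrichment over a matching input or control IP and does not say which for HA. The control values given here may therefore come from untagged HA. The study describes the 3 HA replicates as independent biological experiments. The HA libraries were 2.81 to 3.57 times as deep as their control, with a median of 41 to 50 fragments at a summit in the 3 replicates, while the region lists of H3K4me3 carry no fragment numbers from which the depth of those libraries could be read. The osteoblast identity of the line was only partly visible in H3K4me3. Of 15 osteoblast genes, 6 had H3K4me3 within 1 kb of the TSS in each line (BMP2, COL1A1, MSX2, RUNX2, SP7 and SPARC) and the other 9, which include ALPL, BGLAP, IBSP and SPP1, had none.

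MMP-2 is a zinc-dependent protease best known for degrading extracellular matrix, and a nuclear pool of it removes the N-terminal tail of histone H3. Lysine 4 lies in that tail, and its trimethylation marks the nucleosomes around the TSSs of active genes. A peak caller reports a run of enriched bases as an interval, and a merged list may hold several such intervals as 1 region, so a wide region can be a long stretch of enrichment or a string of short ones.

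Sequences are shown for 8 of the regions, to set the DNA at promoters inside wide regions with H3K4me3 beside the DNA at HA summits in wide regions without it. Capitals mark CG dinucleotides, all positions are in GRCh37, and none of the 8 stretches overlaps an annotated exon. The 4 promoter stretches are the 150 bases before the TSS, written 5′ to 3′ on the strand of the gene.
NME3, chr16:1821563-1821712, minus strand: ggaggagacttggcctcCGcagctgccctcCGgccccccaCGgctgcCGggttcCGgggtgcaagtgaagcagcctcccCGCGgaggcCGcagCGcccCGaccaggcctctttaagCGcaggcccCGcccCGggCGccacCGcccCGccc
RCC1, chr1:28832305-28832454, plus strand: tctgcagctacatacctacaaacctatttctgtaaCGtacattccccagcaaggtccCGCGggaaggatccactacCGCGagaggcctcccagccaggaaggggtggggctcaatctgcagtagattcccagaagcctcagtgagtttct
H2BC13, chr6:27775708-27775857, minus strand: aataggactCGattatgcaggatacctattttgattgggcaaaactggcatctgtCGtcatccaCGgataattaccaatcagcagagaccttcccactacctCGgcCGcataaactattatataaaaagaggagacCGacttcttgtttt
U2AF1L4, chr19:36236347-36236496, minus strand: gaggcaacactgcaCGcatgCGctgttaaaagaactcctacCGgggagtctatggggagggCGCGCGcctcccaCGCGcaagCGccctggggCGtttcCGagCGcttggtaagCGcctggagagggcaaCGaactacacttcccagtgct
The NME3 stretch held 16 CG dinucleotides, that of U2AF1L4 14, that of H2BC13 6 and that of RCC1 5. The next 4 stretches are 150 bases around the strongest HA summit of replicate 2, on the plus strand, in 4 of the widest regions that had no H3K4me3 in either line. Between genes and nearest TSS refer there to protein coding genes only.
PMEPA1, the wider region, chr20:56271089-56271238, plus strand: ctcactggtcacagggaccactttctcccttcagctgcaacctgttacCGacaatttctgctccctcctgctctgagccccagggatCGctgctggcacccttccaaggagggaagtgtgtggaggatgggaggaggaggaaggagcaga
PMEPA1, the narrower region, chr20:56222778-56222927, plus strand: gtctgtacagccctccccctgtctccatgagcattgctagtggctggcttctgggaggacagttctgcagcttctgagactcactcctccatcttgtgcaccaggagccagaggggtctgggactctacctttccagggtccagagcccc
between genes, nearest TSS that of LIF, chr22:30601467-30601616, plus strand: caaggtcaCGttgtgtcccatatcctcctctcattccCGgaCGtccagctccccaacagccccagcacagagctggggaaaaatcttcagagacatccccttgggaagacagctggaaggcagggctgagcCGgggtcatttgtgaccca
TPPP, chr5:672716-672865, plus strand: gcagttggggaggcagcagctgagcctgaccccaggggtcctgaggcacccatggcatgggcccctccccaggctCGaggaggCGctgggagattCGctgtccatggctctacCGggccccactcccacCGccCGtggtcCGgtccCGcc
These held 2, 0, 4 and 8 CG dinucleotides, in the order shown. Their GC content was 58.7%, 59.3%, 58.0% and 72.0%, while that of the promoter stretches of NME3, RCC1, H2BC13 and U2AF1L4 was 78.0%, 54.7%, 42.0% and 63.3%.

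The 526 regions were between 2005 and 21314 bp wide, with a median of 3624 bp and quartiles of 2700 and 4737 bp. The widths fell off steeply, with 173 regions of up to 3000 bp, 239 of over 3000 to 5000 bp, 98 of over 5000 to 10000 bp and 16 above that. The narrowest members were chr9:131901794-131903798, of 2005 bp, and chr11:65618599-65620610, of 2012 bp. Just outside the limit were a 1993 bp region with the TSSs of MTX1 and THBS3 and a 1991 bp region with that of ATXN2L. The highest fold enrichment over control at a summit of these regions was 8.08 and 4.08 in replicates 2 and 3 for the former member, with no interval of replicate 1, and 6.97 in replicate 2 alone for the latter. The excluded regions had 4.76, 7.22 and 6.78 (MTX1 and THBS3) and 4.93, 6.64 and 5.75 (ATXN2L) in replicates 1, 2 and 3, so both were found in every replicate while neither of the narrowest members was.

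To compare the wide regions with the calls of single replicates, the separate narrow HA intervals of each replicate were counted inside them. The paper merged the replicates, analysed them again and merged narrow with broad calls. The list was thus not built from these intervals, and joined means here that a region overlapped them. A wide region joined a median of 2 intervals in each of the 3 replicates. Of the 526 regions, 278 held 2 or more intervals of replicate 1 (52.9%), 388 of replicate 2 (73.8%) and 323 of replicate 3 (61.4%), against 4.55%, 3.55% and 7.46% of the narrower regions. In 180 regions (34.2%) every replicate contributed 2 or more intervals, while in the others at least 1 replicate contributed fewer. An interval of every replicate was present in 421 regions (80.0%, 95% interval 76.4 to 83.4%), of 2 replicates in 82 and of 1 replicate in 23. Replicate 2 missed only 8 regions, while replicate 1 missed 62 and replicate 3 missed 58.

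**Figure D1:**
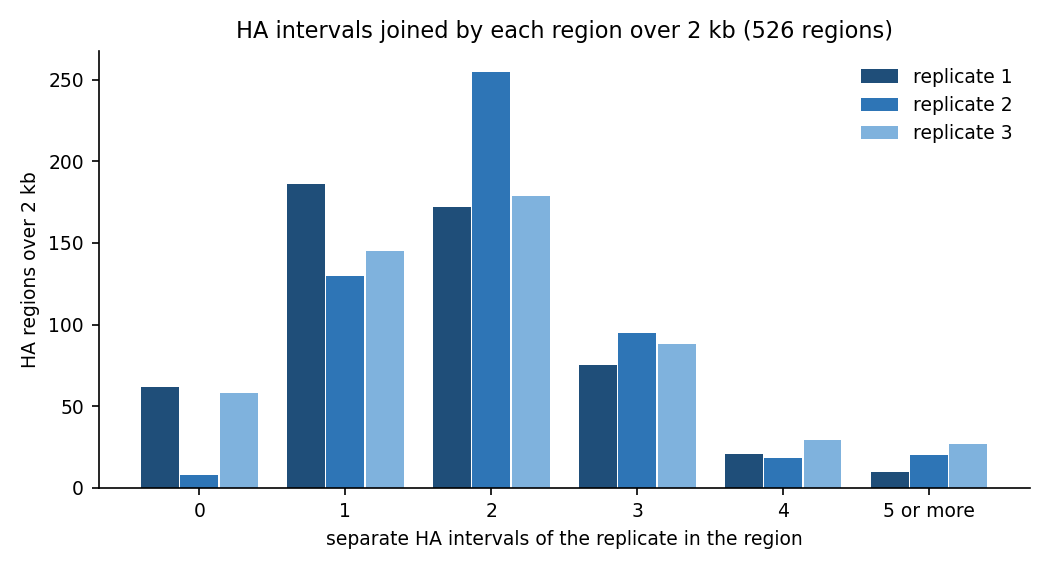
Number of HA regions over 2 kb (vertical axis) by the number of separate narrow HA intervals that the region joined (horizontal axis), with 1 bar for each of the 3 HA replicates. In replicate 2 the tallest bar is at 2 intervals, with 255 of 526 regions, and in replicate 1 it is at 1 interval, with 186.

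The called intervals of a replicate left much of a typical wide region uncovered. The intervals covered a median of 15.7% of a region's width (replicate 1), 42.5% (replicate 2) and 23% (replicate 3), with a mean of 27.1 ± 13.9% (SD, n = 3). Joined over all replicates they covered 50.1%, with quartiles of 28.2 and 74.7%. In the narrower regions the joined intervals covered a median of 100% of the width. An interval that was itself over 2000 bp long occurred in 18 wide regions in replicate 1 (3.42%), 109 in replicate 2 (20.7%) and 47 in replicate 3 (8.94%), in 124 in any replicate (23.6%) and in 12 in all 3 (2.28%). Replicate 2 therefore carried most of the long intervals, and without it the mean share fell from 11 to 6.18%. When intervals of a replicate within 1000 bp of each other were joined, the mean share was 27.2%.

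When overlapping intervals of the 3 replicates were joined, 83 wide regions (15.8%) formed 1 block, 268 (51.0%) formed 2 blocks and 175 (33.3%) formed 3 or more. The largest stretch without an interval between blocks had a median of 1238.5 bp, was over 1000 bp long in 303 regions (57.6%) and over 2000 bp long in 189 (35.9%). A block over 2000 bp long, counted in full where it ran past the region, was present in 141 wide regions (26.8%). It was also present in 60 narrower regions (0.90%), so width in the merged list and long blocks did not always coincide. No neighbours in the merged list lay closer than 4032 bp to each other, so the list itself kept no shorter gap. The effects of the merging distance, of the pooled and broad calls and of the enrichment on the width cannot be told apart from the lists.

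The widest region covered 21314 bp (chr8:145733643-145754956) and held the whole of 5 genes. MFSD3 encodes a membrane transporter-like protein, RECQL4 a DNA helicase, and LRRC14 and LRRC24 proteins with leucine-rich repeats, and C8orf82 is the fifth. It joined 8, 6 and 8 intervals of replicates 1, 2 and 3, and its highest fold enrichment was 14.1, 17.7 and 11.6. H3K4me3 formed 4 separate regions inside it in each line, which covered 24.6% of the width in ProMMP2-3xHA cells and 32.6% in WT cells. Joined over the 3 replicates the intervals formed 7 blocks, and the longest stretch without any was 3596 bp.

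The next widest region, chr13:114609124-114623490 (14367 bp), held no protein coding gene and overlapped the long noncoding RNA LINC00452. The replicates differed there. Replicate 3 covered 79.4% of the width with an interval of up to 6785 bp, against 13.3% for replicate 1 and 27.7% for replicate 2, and the highest fold enrichment was 5.31, 6.89 and 10.1 in replicates 1, 2 and 3. At chr16:1818958-1833208 (14251 bp) the TSSs of NME3, a nucleoside diphosphate kinase gene, EME2, MRPS34, which encodes a protein of the mitochondrial ribosome, and NUBP2 lay in 1 region that joined 7, 3 and 8 intervals. Replicate 2 showed 1 interval of 6815 bp where replicates 1 and 3 showed several short ones.

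At chr12:56109600-56123823 (14224 bp) the region held BLOC1S1, RDH5, a retinol dehydrogenase gene, and CD63, which encodes a tetraspanin of endosomes and exosomes, and the TSS of the integrin gene ITGA7. It joined 4, 4 and 7 intervals, with a highest fold enrichment of 6.03, 9.06 and 6.44. Its H3K4me3 lay at both ends only, whereas the longest HA interval of replicate 2, of 5111 bp, lay between them. RCC1, which encodes the nucleotide exchange factor of Ran, shared the 13248 bp region chr1:28832069-28845316 with SNHG3, a host gene of small nucleolar RNAs. That region joined 5, 6 and 6 intervals and covered 38.6% of the length of RCC1.

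**Figure D2:**
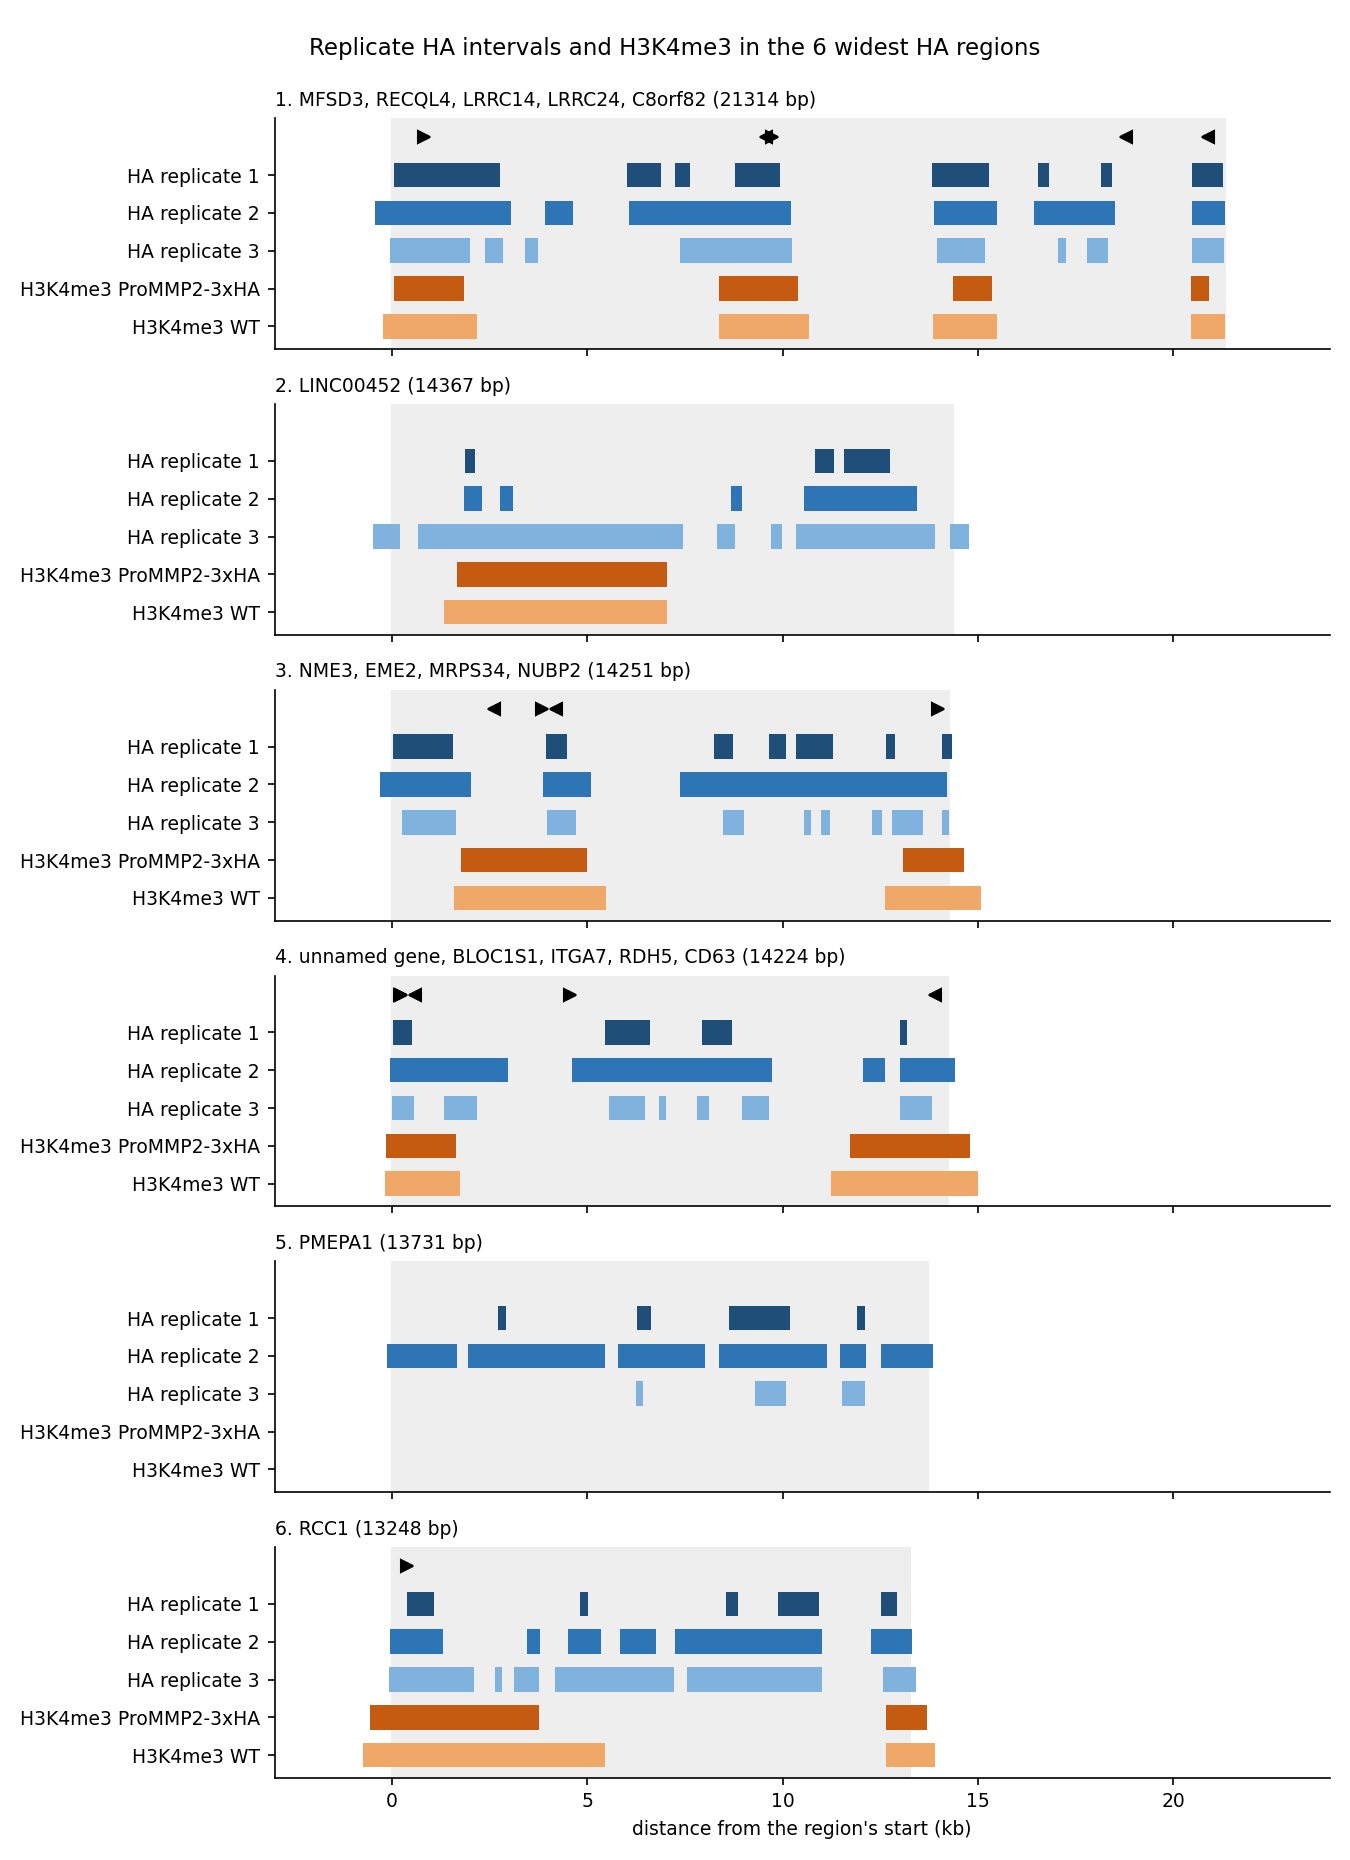
Maps of the 6 widest HA regions, drawn by distance from the start of the region in kb, with the region shaded, HA intervals of the 3 replicates in blue, H3K4me3 regions of both lines in orange and protein coding TSSs as arrowheads that point in the direction of transcription. Each region joined between 3 and 8 intervals in a replicate, and the PMEPA1 region has no H3K4me3.

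Of the other regions among the 10 widest, chr3:49053995-49067113 (13119 bp) held the TSSs of NDUFAF3, an assembly factor of mitochondrial complex I, DALRD3, and IMPDH2, an enzyme of guanine nucleotide synthesis, and joined 7, 3 and 7 intervals. The region at PTOV1 (13078 bp) held this whole gene and joined 2, 5 and 5 intervals, with the strongest summit 6112, 6994 and 7015 bp downstream of the TSS in replicates 1, 2 and 3. At chr19:42746372-42759303 (12932 bp) the kinase gene GSK3A and the ETS-family repressor gene ERF and an unnamed model had their TSSs in a region of which all replicates together covered only 34.4%. The region at DHRS2 (12322 bp), a dehydrogenase gene, lay 5620 bp from the TSS of the gene and contained another transcript start. The region that joined most intervals outside the 10 widest was in LFNG, which encodes a glycosyltransferase that modifies Notch, with 6, 5 and 6 intervals in 8737 bp.

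The TSSs inside the regions were then counted, with the TSS taken as the 5′ end of each protein coding gene. Of the 20098 protein coding genes, 396 had their TSS in a wide region, a background of 1.97%, and 2413 (12%) had it in a narrower one. A TSS lay in 278 wide regions (52.9%, 95% interval 48.5 to 57.2%), against 31.1% of the narrower regions, whose smaller span gives less room for one. With the starts of all protein coding transcripts the share was 68.3%, and with canonical transcripts 57.4%. In detail, 248 regions held no TSS, 196 held 1, 59 held 2, 14 held 3, 5 held 4 and 4 held 5. Width and the number of TSSs were only weakly related, with a Spearman's rho of 0.18 across the 526 regions, which share the same libraries.

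Several promoters in 1 region were more frequent here than in the narrower regions, with 2 or more TSSs in 82 wide regions (15.6%, 12.6 to 19.0%) and 4.68% of the narrower ones. The choice by width bears on this difference, since a narrower region has less room for 2 TSSs. Of the 59 regions with exactly 2 TSSs, 25 held a divergent pair, 18 a convergent pair, 8 a pair on the plus strand and 8 a pair on the minus strand. Of the 396 genes, 15 are models without a symbol. With genes that have a symbol only, 14.6% of the wide regions held 2 or more TSSs. Apart from the MFSD3 and CD63 regions, the regions with 5 TSSs were a histone cluster, chr6:27775272-27783206, and chr19:36235998-36239603, where the splicing factor gene U2AF1L4, the gamma-secretase subunit gene PSENEN and LIN37 have their TSSs within 3606 bp. The latter region held 1 short interval in each replicate, which together covered 19.7% of it.

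The genes with a TSS in a wide region were short. Their median length was 8225.5 bp (quartiles 3404 and 20404 bp), compared to 28779 bp for genes with the TSS in a narrower region and 27256.5 bp for all protein coding genes. Genes under 5 kb made up 148 of the 396 (37.4%), 9.41% of those in narrower regions and 14.3% of all. A wide region contained the whole gene for 116 genes (29.3%), in 93 regions, and at least 50% of it for 143 (36.1%). A short gene fits more easily into a wide region than a long one, so the containment follows in part from the rule. How far the choice by width also bears on the gene lengths was not tested. Among the genes covered whole were those of the ferritin light chain (FTL), the small GTPase RHOC, the chromatin protein prothymosin alpha (PTMA), SOCS3, an inhibitor of cytokine signalling, ATF4, a transcription factor of the stress response, the lectin LGALS1 and the differentiation inhibitors ID1 and ID3.

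In the 196 regions with 1 TSS, the region extended a median of 815 bp upstream of it and 2263.5 bp downstream, and it reached further downstream in 126 (64.3%, 57.1 to 71.0%). The strongest summit lay downstream of the TSS in 67.8 ± 1.40% of these regions (SD, n = 3). Over all of them, upstream summits included, the strongest summit lay at a median of 113.5, 136.5 and 124 bp downstream in replicates 1, 2 and 3. It lay within 1000 bp of the TSS in 62.4%, 60.3% and 70.2%. At FTH1, the ferritin heavy chain gene, the strongest summit was 33, 97 and 112 bp downstream, at SOCS3 54, 70 and 56 bp and at GAPDH 99, 92 and 143 bp. In other regions it lay at the far end, as at SEMA3B, where it was at -7487, -7508 and -7486 bp from the TSS, that is upstream, and at JMJD4, 6594, 6527 and 6579 bp downstream. At PTMA, replicates 1 and 2 had it 7222 and 7290 bp downstream and replicate 3 had it at -21 bp, so the replicates did not always rank the same summit highest. Across the 414 regions with a summit of every replicate, the 3 strongest summits lay within 500 bp of each other in 190 (45.9%), and their median spread was 656 bp.

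**Figure D3:**
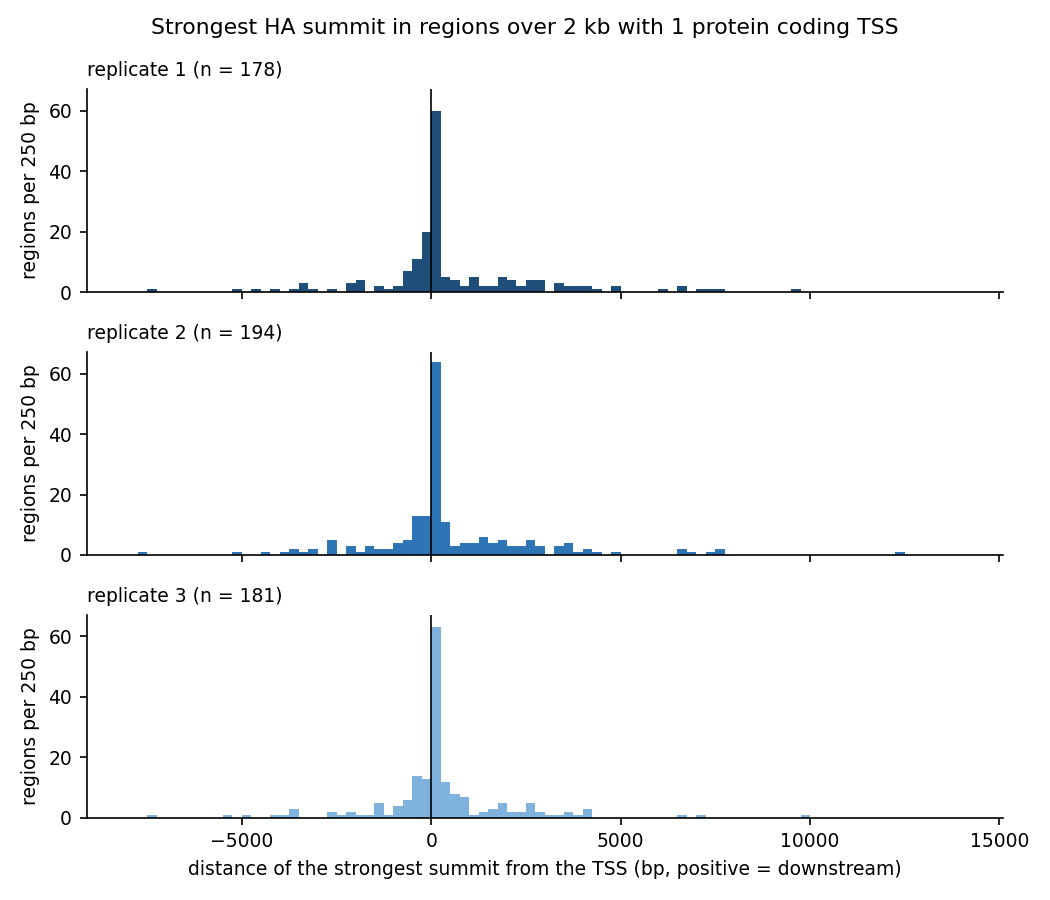
Distance of the strongest HA summit from the TSS in bp (horizontal axis, positive is downstream) in HA regions over 2 kb with 1 protein coding TSS, as the number of regions per 250 bp, for each replicate. Each replicate has its tallest bar just downstream of the TSS, and the tails reach several kb on both sides.

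To relate the wide regions to active promoters, their overlap with H3K4me3 of both lines was determined. H3K4me3 of ProMMP2-3xHA cells was found in 416 of the 526 regions (79.1%, 75.4 to 82.5%), against a background of 82.4% of all merged regions. For WT cells it was found in 431 (81.9%, 78.4 to 85.1%), against 85.2%. With H3K4me3 required over at least 50% of the width, the shares of wide regions were 34.8% in ProMMP2-3xHA cells and 47.9% in WT cells. For any overlap the shares are close to those of all merged regions, although a wide region has more room for an overlap. Both lines had H3K4me3 in 414 regions, ProMMP2-3xHA cells only in 2, WT cells only in 17, and neither line in 93 (17.7%, 14.5 to 21.2%, against 14.6% of all merged regions). There was 1 H3K4me3 library per line, so these values have no replicate check.

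The overlap differed by where the region lay. Of the 278 regions with a gene TSS, 269 had H3K4me3 in both lines and 9 in neither. Of the 82 regions with only another transcript start, away from the 5′ end of the gene, 75 had it in both and 4 in neither. Of these 82, 44 (53.7%) held the start of a canonical transcript. In the 78 regions inside gene bodies away from any protein coding start, 31 had H3K4me3 in both and 41 (52.6%, 40.9 to 64.0%) in neither. In the 88 outside protein coding genes the numbers were 39 and 39 (44.3%, 33.7 to 55.3%). A long noncoding RNA start lay in 9 of the 78 and 25 of the 88. Of the narrower regions with a gene TSS, 0.577% had no H3K4me3 (0.299 to 1.01%), and of those with only another start 0.307% (0.0836 to 0.784%). Their shares were 24.5% in gene bodies (22.5 to 26.5%) and 33.5% outside protein coding genes (31.1 to 35.9%). For the wide regions the share without H3K4me3 was 3.24% (1.49 to 6.06%) at gene TSSs and 4.88% (1.34 to 12.0%) at other starts. A wide region can hold a TSS far from its strongest HA summit, so these shares do not place HA at a TSS without H3K4me3. The intervals cover counting error only. They lay above those of the narrower regions at gene TSSs, at other starts and in gene bodies, while outside protein coding genes they overlapped.

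**Figure D4:**
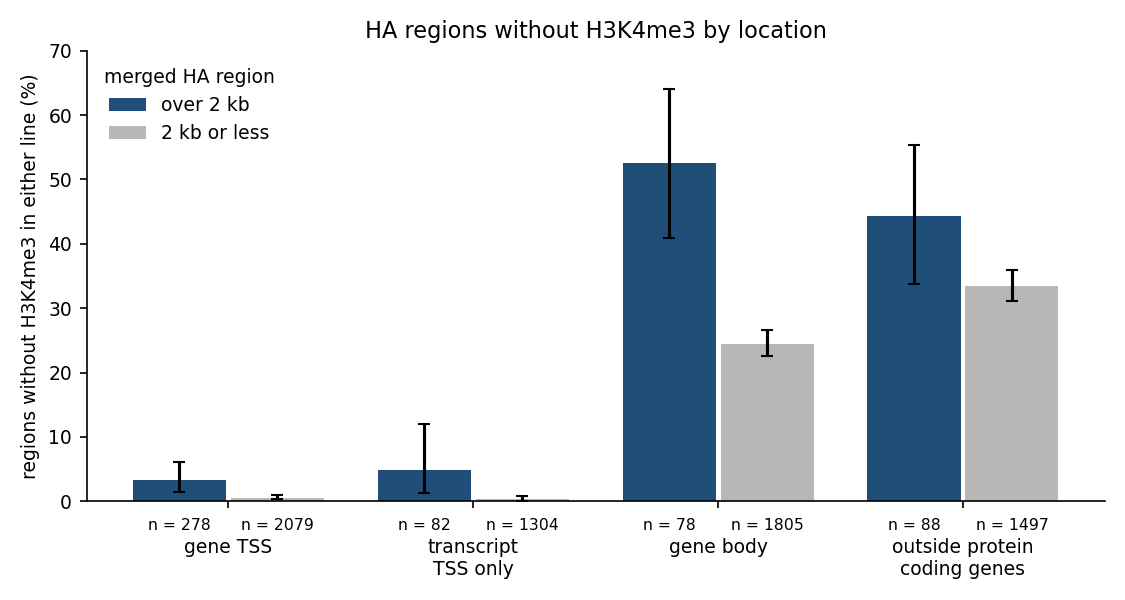
Share of merged HA regions without H3K4me3 in either line (vertical axis, %) by location (horizontal axis), for regions over 2 kb (blue) and of 2 kb or less (grey), with 95% exact binomial intervals and the number of regions under each bar. The share is 3.24% at gene TSSs and 52.6% in gene bodies for the wide regions.

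At the strongest summit itself, H3K4me3 was less frequent in the wide regions than in the narrower ones in all 3 replicates. In ProMMP2-3xHA cells 62.6%, 59.6% and 70.3% of the strongest summits of wide regions lay in H3K4me3 for replicates 1, 2 and 3, a mean of 64.1 ± 5.51% (SD, n = 3), compared to 78.5%, 81.0% and 89.1% for narrower regions, a mean of 82.9 ± 5.53% (SD, n = 3). The difference was -18.7 ± 2.70 percentage points (SD, n = 3, exact sign permutation test, two-sided p = 0.25). For H3K4me3 of WT cells it was -17.3 ± 2.74 percentage points (n = 3, exact sign permutation test, two-sided p = 0.25), from means of 70.1 and 87.4%. With 3 replicates 0.25 is the smallest p that this test can give, so it decides nothing here. The SD covers the HA summits only, as each line has 1 H3K4me3 library, and the same HA replicates made the merged list. The choice by width bears on this difference, since the narrower regions had a median of 100% of their width under H3K4me3 and the wide ones 36.2% in ProMMP2-3xHA cells, which leaves a summit in a wide region more room outside it.

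The DNA at the strongest summits was compared in windows of 500 bp, which are equal for regions of any width. The median GC content was 63.6, 62.8 and 64.4% in the wide regions and 65.2, 65.4 and 66.4% in the narrower regions. The difference was -2.07 ± 0.50 percentage points (SD, n = 3, exact sign permutation p = 0.25, again the smallest possible). The median number of CG dinucleotides was 32, 30 and 37 against 41, 42 and 44. Wide regions without H3K4me3 in either line had medians of 10, 9 and 10 CG dinucleotides and 57.5, 57.4 and 57.2% GC. Narrower regions without H3K4me3 had 8, 9 and 10 CG dinucleotides and 51.6, 53.2 and 53.1% GC. In regions without H3K4me3 the CG number was therefore alike in both, and the GC content was higher in the wide ones in each replicate.

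Motifs were counted in the same windows on both strands, as a description. Regions were classed by H3K4me3 anywhere in them, so a window itself could lie outside it. Over all regions, strongest summits lay inside H3K4me3 less often in wide than in narrower regions. TGANTCA, the core of the AP-1 site, was found in 23%, 22% and 20.7% of the windows of wide regions without H3K4me3, and in 12.6%, 14.5% and 8.29% of those with H3K4me3 in both lines. In narrower regions the shares were 24%, 24.9% and 25% without H3K4me3 and 6.71%, 6.22% and 6% with it in both lines. GGGCGG, the GC box, was found in 35.1%, 25.3% and 20.7% of the wide regions without H3K4me3, and in 74.7%, 74.0% and 76.7% of those with it in both lines. In narrower regions it was found in 20.6%, 25.9% and 23.7% without H3K4me3 and in 85.5%, 84.7% and 84.7% with it in both lines, so that with H3K4me3 the wide regions were lower in each replicate. TATAAA occurred in 15.3%, 12.3% and 14.5% of the windows of wide regions with H3K4me3 in both lines and in 5.54%, 5.80% and 5.61% of the corresponding narrower windows, while CCAAT occurred in 39.2 to 42.0% and in 38.1 to 40.2%. In regions with H3K4me3, TGANTCA and TATAAA were thus more frequent at the summits of wide than of narrower regions in each replicate, and CCAAT differed little. How much of this came from summits outside H3K4me3 was not tested. Without H3K4me3 the wide regions were lower for TATAAA, with 10.8%, 13.2% and 12.1% in wide regions against 19.1%, 15.5% and 12.7%, and for CCAAT, with 32.4%, 31.9% and 29.3% against 45.2%, 43.4% and 43.7%.

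The 5 widest regions without H3K4me3 in either line included 2 in PMEPA1, which encodes a membrane protein that restrains TGF-beta signalling. The wider, chr20:56261155-56274885 (13731 bp), joined 4, 6 and 3 intervals with a highest fold enrichment of 5.95, 7.80 and 6.73 in replicates 1, 2 and 3. Replicate 2 covered 87.5% of it, while replicates 1 and 3 covered 16.8% and 11.5%. The other, chr20:56221676-56232791 (11116 bp), joined 4, 3 and 3 intervals with 5.90, 10.2 and 4.44. A PMEPA1 region of 5763 bp, which ends 148 bp from the TSS of the gene, was in contrast covered by H3K4me3 over 95.6% of its width in ProMMP2-3xHA cells and 100% in WT cells, with a fold enrichment of 5.87, 8.37 and 5.85. The 3 regions in 1 gene therefore had similar HA enrichment, with H3K4me3 in the one nearest the TSS only.

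The other 3 of these 5 regions were chr8:145537001-145545461 (8461 bp), which overlaps the heat shock factor gene HSF1 and the triglyceride synthesis gene DGAT1, chr22:30600848-30608200 (7353 bp), 34548 bp from the TSS of the cytokine gene LIF, and chr5:671910-677977 (6068 bp) in TPPP, which encodes a tubulin polymerization promoting protein. Each of these 3 regions also held the start of a long noncoding RNA. Their highest fold enrichment was 5.15, 5.68 and 5.55 at HSF1 and DGAT1, 4.47, 5.80 and 6.38 near LIF and 6.21, 9.20 and 6.09 in TPPP. A region of 4255 bp closer to LIF also had no H3K4me3, and one of 8952 bp, 2522 bp from its TSS, had it over 27.1% and 37.9% of the width in ProMMP2-3xHA and WT cells. In general, HA enrichment was lower in the 93 regions without H3K4me3, with a median highest fold enrichment of 5.00, 6.12 and 4.51 in replicates 1, 2 and 3, than in the 414 with H3K4me3 in both lines, with 6.18, 7.53 and 6.12. An interval of every replicate was present in 57.0% of the former and 85.5% of the latter, and the median control background was 1.45, 2.00 and 1.74 fragments at the former and 2.00, 2.22 and 2.00 at the latter.

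The 9 regions with a gene TSS but no H3K4me3 held the TSSs of CLP1 and YPEL4, LTBR, COL9A3, TNFRSF6B, PGAM2, AHNAK, DNASE1L2, SLFNL1 and GCHFR. These were named after their values were seen. A TSS inside a wide region need not lie at its HA summit. At PGAM2 the strongest summit was at -1972, -1697 and -1433 bp from the TSS in replicates 1, 2 and 3. At GCHFR it was at -625 and -619 bp in replicates 1 and 2, and at AHNAK at -228, -276 and 2808 bp. The region of CLP1, an RNA kinase gene, and YPEL4 was the widest, with 6011 bp, and joined 5, 2 and 4 intervals with a fold enrichment of 7.25, 9.87 and 5.22. The region of LTBR, the lymphotoxin beta receptor gene, had the lowest values of the 9 in replicates 1 and 2, with 3.79, 4.22 and 3.52. Those of COL9A3 and GCHFR had no interval in replicate 3.

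Across the width of the regions, H3K4me3 was broader in the WT library. It covered a median of 36.2% of a wide region in ProMMP2-3xHA cells and 48.1% in WT cells. More of the width was covered in WT cells in 336 regions (63.9%, 59.6 to 68.0%), more in ProMMP2-3xHA cells in 24 (4.56%) and the same share in 166 (31.6%). Over the whole lists, H3K4me3 regions had a median width of 893 bp in ProMMP2-3xHA cells and 1480.5 bp in WT cells, so broader H3K4me3 was not particular to the HA regions. In the narrower HA regions, 17.8% had more of their width covered in WT cells and 0.72% in ProMMP2-3xHA cells. However, 67.2% of the narrower regions lay whole inside H3K4me3 in ProMMP2-3xHA cells, which leaves no room for more in WT cells. The 2 groups are therefore not comparable on this measure. A whole wide region lay inside 1 H3K4me3 region in 72 cases (13.7%) in ProMMP2-3xHA cells and 121 (23%) in WT cells. With 1 library per line, the line and the library cannot be told apart.

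The differences between the lines were largest at 3 regions that WT H3K4me3 covered in full. In MYO1C, a class I myosin gene, 20.2% of the 2265 bp were covered in ProMMP2-3xHA cells, at MZF1, a zinc finger gene, 20.7% of 2644 bp and at ANXA11, an annexin gene, 35.9% of 2379 bp. In the other direction, the region in the chromatin remodeller gene CHD2 (4168 bp) was covered over 99.2% in ProMMP2-3xHA cells and 70.7% in WT cells. The next 2 lay outside protein coding genes, at chr5:174775764-174778215 with 44% against 15.6%, and at chr8:122153644-122158366 with 40.9% against 12.7%. HA enrichment was modest in all 6, with a highest fold enrichment between 4.11 and 7.56 in any replicate.

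**Figure D5:**
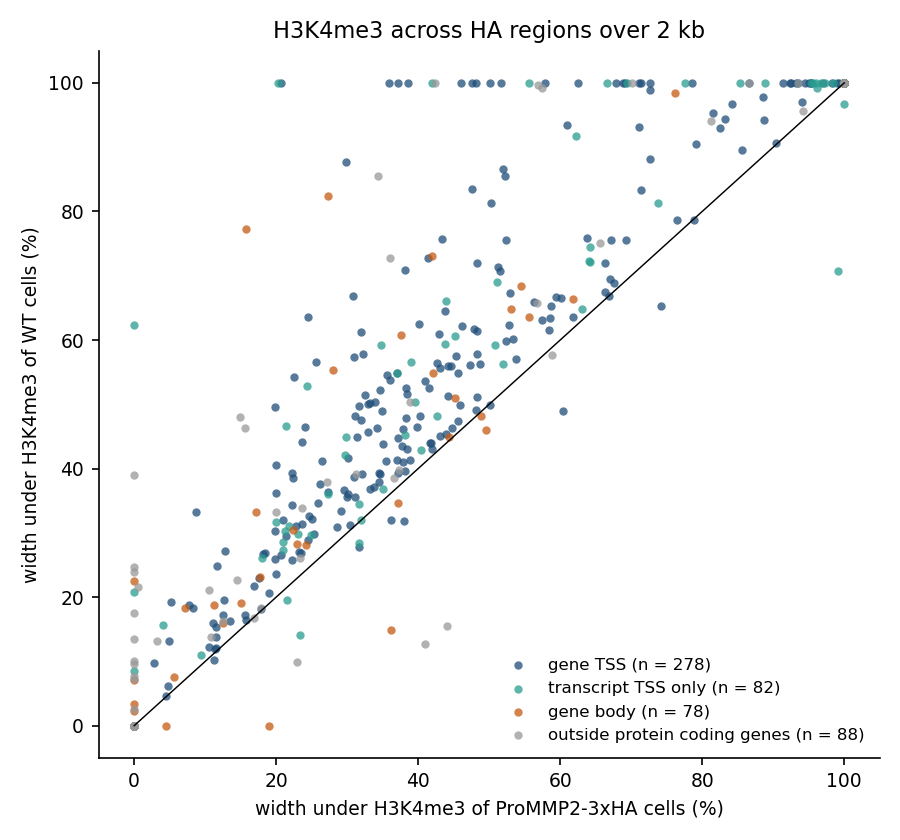
Percent of the width of each HA region over 2 kb that lay under H3K4me3 in ProMMP2-3xHA cells (horizontal axis) and WT cells (vertical axis), with 1 point per region, coloured by location, and a line at equal values. Most points lie above the line, and 336 of 526 regions had more width covered in WT cells.

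Fold enrichment varied widely among the regions, and its order was similar between replicates. The highest fold enrichment of a wide region had a median of 5.95 in replicate 1, 7.25 in replicate 2 and 5.81 in replicate 3, where the narrower regions had 5.00, 6.03 and 5.12. A wide region holds more summits to take the highest from, with a median of 2, 3 and 3 against 1 in each replicate. Between replicates the Spearman's rho was 0.81 (1 and 2, 458 regions), 0.63 (1 and 3, 416 regions) and 0.66 (2 and 3, 454 regions), as a description of regions that share the libraries.

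The highest mean was found at EIF1, which encodes a factor of start codon selection, with a fold enrichment of 21.1, 34.0 and 18.6 in replicates 1, 2 and 3. The strongest summit was 102, 142 and 102 bp downstream of its TSS, with 297, 348 and 220 fragments. IER3, an early response gene, shared a 2839 bp region with the TSS of the flotillin gene FLOT1, and there the fold enrichment was 19.4, 29.7 and 15.3. Unlike most, this region was nearly filled by called intervals, with 1 interval per replicate that covered 94.5%, 100% and 93.3% of it. The same held for the region of 4153 bp with THOC6, a gene of the mRNA export complex TREX, HCFC1R1 and the cytokine receptor gene TNFRSF12A, with 16.8, 20.7 and 24.5 and a single interval over 99.0%, 100% and 100% of the width.

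The region at MIR21 inside VMP1, a gene of autophagy, reached 21.0, 23.5 and 19.4 over 8130 bp. It lay in the body of VMP1, and the control background at its strongest summit was 7, 9 and 7.43 fragments, while the median over all summits was 2 in each replicate, so the control was also high there. The histone region of chr1:149857136-149860113, with H2BC21, H2AC20, BOLA1 and H2AC21, had 13.8, 21.4 and 22.1, with a background of 4 in each replicate. The ribosomal protein gene RPL10 had 16, 21.8 and 19.1 in a region that held another transcript start and lay 7777 bp from the 5′ end of the gene. In ACTB, the beta-actin gene, the background was also high, with 7.97, 9.28 and 8.45, beside a fold enrichment of 8.27, 13.7 and 14.3. Backgrounds of more than 3 times the median occurred at 2.93%, 3.43% and 3.19% of the wide regions and 3.67%, 4.47% and 3.58% of the narrower ones in replicates 1, 2 and 3.

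Named groups of genes were compared with the background of 1.97%, with the TSS at the 5′ end of the gene. A wide region at another transcript start, such as that of RPL10, or inside a gene body is not in these counts. The replication-dependent histone genes, which supply the nucleosomes of newly made DNA, had 20 of 64 TSSs in wide regions (31.2%). They lay in 9 regions, since these genes are short and stand in clusters, and another 9 TSSs lay in narrower regions. The 7935 bp region with H2BC13, H2AC13, H3C10, H2AC14 and H2BC14 had no interval of replicate 1, while replicates 2 and 3 had 3 and 5 intervals and a highest fold enrichment of 6.97 and 6.65. At H1-1, H3C1 and H4C1 (5034 bp) it was 9.22, 11.5 and 18.8, at H3C2 (2158 bp) 11.2, 11.6 and 19.2 and at H2AC11 and H2BC11 (2543 bp) 8.46, 11.9 and 16.7. Replicate 3 was the highest of the 3 in these latter regions. Histone genes are near copies of each other, so these values are uncertain where reads fit several copies.

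Of the AP-1 and immediate early genes, which are switched on within minutes of a stimulus, 8 of 27 had the TSS in a wide region (29.6%), 6 in a narrower one and 13 in none. ZFP36, an RNA-binding protein gene, lay in the widest of these regions (6862 bp), with a fold enrichment of 5.09, 7.47 and 4.75. The matricellular gene CCN1 (4858 bp) had 4.95, 5.84 and 6.70, and the AP-1 subunit genes JUNB (4009 bp) and FOSL2 (3609 bp) had 9.82, 12.1 and 6.78, and 5.79, 6.76 and 7.30. The others were GADD45B, JUN, IER3 and FOS, and H3K4me3 covered all 8 regions over at least 43.4% of the width in ProMMP2-3xHA cells and 75.7% in WT cells. At JUN and FOS it covered the whole region in both lines.

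In 3 of 17 glycolysis genes the TSS lay in a wide region (17.6%), with GAPDH at 14.5, 18.1 and 12.7 in 7039 bp, the triosephosphate isomerase gene TPI1 at 10.0, 14.8 and 16.8 in 6258 bp and the lactate dehydrogenase gene LDHA at 11.2, 11.8 and 6.75 in 2023 bp. Of 29 genes of actin, tubulin and the cytoskeleton, 5 had it there (17.2%). The tubulin genes TUBB (9885 bp), TUBB4B (7643 bp) and TUBA1B (4914 bp) had 8.15, 9.28 and 5.63, 15.9, 17.3 and 7.33, and 8.87, 13.3 and 14.2, the myosin light chain gene MYL6 had 7.25, 10.4 and 7.11, and the fifth was the profilin gene PFN1. All 3 tubulin regions extended beyond their H3K4me3, which covered between 30.2 and 60.4% in ProMMP2-3xHA cells.

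Of the 79 cytosolic ribosomal protein genes, 7 had the TSS in a wide region (8.86%), 26 in a narrower one and 46 in none. Among them, RPS12 (7811 bp) had a highest fold enrichment of 10.1, 15.1 and 9.75, RPS2 (5823 bp) had 10.6, 12.7 and 10.2 and RPL18 (5804 bp) had 6.14, 8.27 and 6.33. The TSSs of RPL10A, RPL41 and RPL23A also lay in wide regions. The translation factors had 2 of 35 (5.71%), EIF1 and EEF1D, and the heat shock chaperones 1 of 18 (5.56%), the small heat shock protein gene HSPB1 with 9.47, 13.9 and 10.4. The SR proteins and hnRNPs, which bind RNA in splicing, had 1 of 32 (3.12%), HNRNPUL1 with 6.36, 12.2 and 12.6, and 15 in narrower regions.

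None of 34 genes of metalloproteinases, their inhibitors and cathepsins had this TSS in a wide region, and 1 had it in a narrower one. H3K4me3 lay within 1 kb of it in 14 of them in ProMMP2-3xHA cells. Wide regions elsewhere in these genes were not counted. The 15 osteoblast genes likewise had none in a wide region and 1, COL1A1, in a narrower one. At the background of 1.97%, lists of 34 and 15 genes can hold none without differing from other genes. The groups with the largest shares in wide regions were short genes in part, with a median length of 509 bp for the histone genes and 4201 bp for the immediate early genes, but 32791 bp for the glycolysis genes and 16983 bp for the cytoskeleton genes. These shares describe the lists, and no test compared them with other genes.

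Genes of noncoding RNAs also started in the wide regions. A long noncoding RNA start lay in 144 of them (27.4%), against 11.2% of the narrower regions, whose smaller span gives less room for one. Among these regions, chr11:65186400-65197806 (11407 bp), held the start of NEAT1, the RNA that builds paraspeckles, and joined 6, 4 and 6 intervals with a highest fold enrichment of 8.83, 12.8 and 10.7. H3K4me3 covered 58.8% of it in ProMMP2-3xHA cells and 57.6% in WT cells. A further 2 wide regions in the body of NEAT1, of 2502 and 3731 bp, had no H3K4me3, and their fold enrichment was 3.84 and 4.88 in replicate 1 and 5.15 and 5.71 in replicate 2.

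A start of a small RNA gene lay in 30 wide regions, among them those of 15 microRNA and 18 small nucleolar RNA genes. The share in narrower regions was not determined, and a wide region has more room for a start, so this is no trait of the wide regions. To show examples, mature sequences of 6 microRNAs, chosen after their values were seen, are given from RefSeq (GRCh38.p14), with the seed, bases 2 to 8, in capitals.
hsa-miR-21-5p: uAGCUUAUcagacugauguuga
hsa-miR-191-5p: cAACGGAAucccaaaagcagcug
hsa-miR-425-3p: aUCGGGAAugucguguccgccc
hsa-miR-135b-5p: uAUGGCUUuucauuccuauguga
hsa-miR-762: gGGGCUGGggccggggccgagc
hsa-miR-4492: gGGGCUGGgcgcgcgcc
The miR-21 hairpin lies in the VMP1 region, the miR-191 and miR-425 hairpins in the region of DALRD3, NDUFAF3 and IMPDH2, with a fold enrichment of 11.3, 14.8 and 9.61, and the miR-135b hairpin in a 5089 bp region with 5.00, 7.66 and 5.12. Only miR-762 and miR-4492 shared a seed, and their regions had 6.32, 7.93 and 5.91 (3180 bp) and 4.64, 6.27 and 6.23 (2390 bp). All of these regions had H3K4me3 in both lines except that of miR-4492, which had it in WT cells only.

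The wide regions were not spread evenly over the genome. Chromosome 19 had the largest share, with 53 of its 403 merged regions (13.2%), followed by chromosome 22 with 12.0% and 17 with 11.8%, while chromosome 3 had the smallest, with 13 of 422 (3.08%). Of the 526 regions, 138 (26.2%) lay within 50 kb of another. The same share of the narrower regions was not determined, so this cannot be read as a trait of the wide ones. The largest groups held 5 each, at the plectin gene PLEC with PARP10 and GRINA on chromosome 8, and from CFL1 to DRAP1 on chromosome 11, a stretch that includes the AP-1 gene FOSL1. Around CEBPB, a transcription factor gene on chromosome 20, the region at the gene was 4685 bp wide with 9.03, 11.6 and 8.92 and H3K4me3 over 66.3% and 72.0% of it. The 3 other regions of this group, 52061 to 118180 bp from its TSS, had no H3K4me3 in ProMMP2-3xHA cells, and 1 had it over 9.59% of the width in WT cells. At the groups of VMP1 and of NEAT1, too, 1 region had H3K4me3 in both lines and the other 2 had none.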

How the data were processed

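HA nChIP-Seq of 3 replicates of ProMMP2-3xHA cells and H3K4me3 nChIP-Seq of both lines were analysed as lists of regions. The authors trimmed reads with Trim Galore 0.6.0, aligned them to hg19 with Bowtie2 2.3.5.1, filtered them with SAMtools 1.9 and Picard and called enrichment over a control with MACS2 3.0.0a6. For the merged HA list the authors merged the replicates, analysed them again and merged narrow and broad calls into 1 list. The deposited replicate lists give the fold enrichment at the summit as a ratio, the −log10 p-value and −log10 q-value, and a score, of which the score was not used. Fragment numbers and the control background at each summit were solved from the deposited fold enrichment and −log10 p-value. The computation was tested on simulated data.

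Genes were taken from GENCODE 44 mapped to GRCh37. Overlap of 1 base counted as shared. Computations were done in Python 3.11.15 with numpy 2.4.6, pandas 2.3.3, scipy 1.17.1 and matplotlib 3.10.9. Samples were grouped by antibody and line as the labels give them. Measures other than HA itself were compared between wide and narrower regions over replicates with an exact sign permutation test. Shares have 95% exact (Clopper-Pearson) binomial intervals, which cover counting error only. Named were the widest regions, those with most TSSs, intervals or enrichment, those without H3K4me3 or with the largest difference between lines, and listed genes, and other genes were chosen after their values were seen. A gene of these lists is not reported here. The regions and gene lists were chosen with earlier results of these data known. Alternatives were another width limit, TSS definition, q-value, overlap and each replicate left out.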

Additional observations from a re-analysis of the deposited data

Results flagged for a closer look

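The comparisons cover chromosomes 1 to 22 and X. On unplaced and unlocalised contigs, which they do not use, the merged HA list held 4 further regions over 2 kb. All 4 had an HA interval of every replicate and H3K4me3 in both lines.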

How the results depend on the processing

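Of 42 alternative settings for 11 results, 12 moved the value by more than its spread or, for counts of regions, by over 1.5 times, and 30 did not. The share of wide regions with a protein coding TSS was 57.4% with canonical TSSs, 68.3% with all transcripts and 57.2% in regions with an interval of every replicate, against 52.9%. The mean number of intervals joined was 1.67 at a q-value of 0.01 or less, against 2. The mean share with a replicate interval over 2000 bp was 27.2% when intervals within 1000 bp were joined, against 11%. H3K4me3 over at least 50% of the width was present in 34.8% in ProMMP2-3xHA cells and 47.9% in WT cells, against 79.1% and 81.9% for any overlap. In regions with an interval of every replicate these shares were 84.3% and 87.2%, an alternative chosen after seeing the data, as was the count of TSSs of genes with a symbol only. The strongest summit lay downstream of canonical TSSs in 64.1%, against 67.8%, canonical transcripts had a median length of 5891 bp, against 8225.5 bp for genes, and 1.45% of genes had the TSS in a region over 3000 bp, against 1.97%. Leaving out 1 replicate at a time gave 2 to 2 intervals joined, 19.4 to 32.8% of the width covered, 6.18 to 14.8% with an interval over 2000 bp, the lowest without replicate 2, and 67.1 to 68.5% of summits downstream. No paired analysis was possible because H3K4me3 has 1 library per line and the HA replicates form 1 group, so no groups of samples share replicate numbers, and the differences between wide and narrower regions were taken within each HA replicate. Region lists hold no signal outside called regions, so weaker enrichment between intervals, or H3K4me3 under the calling threshold, was not detectable here.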
